A study of Mus musculus with 8 samples.

Results

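Transcripts of 10 genes of bone morphogenetic protein (BMP) signalling were followed in single cells of embryonic mouse forelimbs. They comprised 6 ligands (*Bmp2*, *Bmp4*, *Bmp5*, *Bmp7*, *Gdf5* and *Gdf6*), 3 secreted antagonists (*Grem1*, *Nog* and *Chrdl1*) and *Bambi*, a membrane pseudoreceptor. The 10 were chosen by symbol, out of 27998 genes in the count matrices, and all 10 were detected in each of the 8 libraries. Levels were read from raw transcript counts (unique molecular identifiers, UMIs) of cells with at least 3000 UMIs and at most 10% mitochondrial UMIs. The study labelled *Hic1*+ mesenchymal progenitors (MPs) and their descendants. All embryos were C57BL/6J and, in every group, exposed to 7.5 mg of tamoxifen given at E10. For the 6 sorted libraries the embryos were homozygous for a CreERT2 knock-in at *Hic1* (*Hic1* CreERT2/CreERT2), so that both *Hic1* alleles carried Cre, and for a *Rosa26* LSL tdTomato reporter. tdTomato+ cells free of blood and endothelial surface markers were sorted from pooled forelimbs at daily stages from E11.5 to E14.5 and at E16.5, the last split into a proximal segment around the elbow and a distal segment of distal zeugopod and autopod. In addition, 2 libraries (whole 1 and whole 2) held lineage-negative cells of whole E11.5 limbs, labelled as both tdTomato+ and tdTomato-. The study's methods give the whole limbs the genotype name defined there for the homozygous line.

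BMP ligands are secreted dimers of the TGF-β superfamily that bind pairs of serine/threonine kinase receptors and activate receptor-regulated Smad proteins. In the limb they are known for shaping the digits, the cartilage condensations and the joints. Antagonists such as gremlin and noggin bind the ligands outside the cell, and BAMBI resembles a type I receptor without the kinase. The secreted antagonists and BAMBI thus dampen the signal at different steps.

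In GRCm38 (annotation GENCODE vM21), *Bmp2* (2:133552159-133562885, plus strand), *Bmp7*, *Gdf5* and *Grem1* (2:113746164-113758646, minus strand) lie on chromosome 2 and *Chrdl1* on the X chromosome. Only *Bmp5* overlaps another gene on its own strand (*Gm47723*). RefSeq promoters were matched for 3 of the 10 genes, *Bmp4*, *Bmp5* and *Grem1*, and all 3 are shown. Of these, *Bmp4* was past 2-fold upward in the distal E16.5 segment and *Bmp5* had the greatest early time course ratio among the members counted. *Grem1* differed between the segments in a direction that varied by cell class. The 250 bases before each start site are shown 5′ to 3′ on the gene's strand, from GRCm38.p6 at chr14:46390670-46390919 (minus strand), chr9:75775115-75775364 (plus strand) and chr2:113758649-113758898 (minus strand). Capitals mark the GC box GGGCGG and the CCAAT box, each searched on both strands.
Bmp4: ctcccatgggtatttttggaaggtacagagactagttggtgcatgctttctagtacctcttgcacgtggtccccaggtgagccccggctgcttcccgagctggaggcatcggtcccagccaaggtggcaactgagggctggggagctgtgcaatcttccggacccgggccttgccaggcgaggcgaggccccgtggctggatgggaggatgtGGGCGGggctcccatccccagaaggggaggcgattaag
Bmp5: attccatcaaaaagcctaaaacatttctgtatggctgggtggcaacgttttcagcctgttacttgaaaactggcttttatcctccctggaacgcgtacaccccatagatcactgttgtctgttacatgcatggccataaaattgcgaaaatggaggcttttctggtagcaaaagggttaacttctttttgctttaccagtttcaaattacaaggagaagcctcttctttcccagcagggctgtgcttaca
Grem1: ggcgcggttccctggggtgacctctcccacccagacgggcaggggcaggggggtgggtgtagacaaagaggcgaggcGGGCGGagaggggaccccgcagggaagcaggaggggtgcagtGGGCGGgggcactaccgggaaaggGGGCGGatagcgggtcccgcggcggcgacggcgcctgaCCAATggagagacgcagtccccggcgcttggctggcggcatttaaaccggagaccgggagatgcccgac
The *Grem1* window held 3 GC boxes and 1 CCAAT box, the *Bmp4* window 1 GC box and the *Bmp5* window neither. GGGCGG was found in 32.7% and CCAAT in 33.9% of all 32851 RefSeq promoter windows of that length. The E-box CANNTG occurred 3 times in *Bmp4* only (66.2% of all windows) and the GC-rich Smad element GCCGNCGC 2 times in *Grem1* only (6.89% of all). The TATA box TATAAA was absent from the 3 windows and present in 12.4% of all. Of the letters, 63.2%, 42.8% and 72.0% were G or C in *Bmp4*, *Bmp5* and *Grem1*, beside a median of 52.4% over all windows. A match is a description of the letters and not a mapped site.

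In total 53085 of 57469 barcodes passed the filter, between 3165 (E11.5) and 11109 (E16.5 proximal) per library, and the median depth of those cells lay between 6788 UMIs (E13.5) and 18473 UMIs (E16.5 proximal). At E11.5 only 74.2% of barcodes passed. Epithelial-like cells (65 at E14.5, 942 and 67 in the proximal and distal E16.5 segments) were described apart and left out of library sums. No pair of libraries shared more than 48 barcodes. tdTomato stood at between 427 and 1341 CPM (UMIs of a gene for every 1e6 UMIs) in the sorted libraries but at 3.88 and 4.21 CPM in whole 1 and whole 2, where *Hic1* was at 0.702 and 0.741 CPM against 22.0 to 38.0 CPM in the sorted libraries. The whole limb libraries thus held few tdTomato or *Hic1* transcripts, and 3.46% and 3.63% of their cells had a tdTomato UMI (cells not thinned). The limb mesenchyme gene *Prrx1* was present in all 8 (201 to 647 CPM). By the study's methods another reagent kit (v2) was used for stages up to E13.5 than for later ones (v3), and limbs up to E12.5 were dissociated with other enzymes than later limbs. Stage cannot be told apart from dissociation between E12.5 and E13.5, nor from kit between E13.5 and E14.5.

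Each sorted stage was 1 library, so levels over time carry exact Poisson 95% intervals that cover counting error only, and no test was made. A level below is the CPM of a gene summed over all described cells of a library. Such sums cannot tell fewer cells with the transcript from less transcript per cell. Between E11.5 and E13.5 *Bmp5*, *Gdf5* and *Grem1* were past a 2-fold ratio upward and none of the 10 was past it downward. Of all 10453 genes at 5 CPM or more in either library, 6.03% were past 2-fold upward and 4.17% downward. Cell type markers moved over the same stages, with no gene of the lists given here at 0. From E11.5 to E13.5 the 10 chondrocyte markers summed to 687 and 1403 CPM, the 8 tenocyte markers to 323 and 775 CPM and the 6 fibrogenic progenitor markers to 582 and 1135 CPM. The dermal fibroblast (341 and 520 CPM), perichondrial or osteogenic (123 and 197 CPM), distal limb bud mesenchyme (144 and 167 CPM) and perineurial lists (45.1 and 62.7 CPM) were higher at E13.5 too. Lower at E13.5 were the 8 early mesenchymal progenitor markers (3031 and 1260 CPM), the 8 mitotic markers (1654.5 and 950 CPM) and the 8 joint markers (592 and 515 CPM). The part of these lists in the ratios was not tested. The members counted by the 2-fold rule were 9 of 10, with a median log2 ratio of 0.13 beside -0.09 over all genes.

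*Bmp2*, a ligand known for cartilage and bone formation, was at 28.9, 43.2 and 53.9 CPM at E11.5, E12.5 and E13.5, and at 30.5, 26.3 and 44.7 CPM at E14.5 and in the E16.5 proximal and distal libraries. Its E13.5 level was 1.86 times that of E11.5 (95% interval 1.73 to 2.01). *Bmp4*, the early limb bud ligand, ran the other way within the v2 libraries. It was at 53.7, 38.2 and 32.2 CPM at E11.5, E12.5 and E13.5, so that E13.5 was 1.67-fold lower than E11.5 (1.55 to 1.79), and, in the v3 libraries, at 27.1 CPM at E14.5 and at 17.4 and 49.96 CPM in the proximal and distal segments of E16.5. *Bmp5*, a ligand whose loss gives short ears in mice, had the greatest ratio among the members counted. It was at 5.21, 18.8 and 34.4 CPM over the v2 stages, a 6.61-fold ratio (5.63 to 7.82), and at 11.4, 13.4 and 14.6 CPM in the v3 libraries, in the same order. *Bmp7*, a ligand with roles in kidney, eye and limb, stayed between 43.1 and 49.5 CPM up to E13.5, then stood at 33.9 CPM at E14.5 and at 16.3 and 15.6 CPM in the proximal and distal segments of E16.5.

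*Gdf5* marks joint interzones and is needed for many limb joints. Its levels were 12.4, 22.5 and 29.1 CPM over the v2 stages, a 2.35-fold ratio (2.10 to 2.64), and 8.44, 6.83 and 2.84 CPM in the v3 libraries, again with the distal segment last. *Gdf6*, its close relative with a role in wrist and ankle joints, stayed under 5 CPM in every library and was not counted by the 2-fold rule. It had 10 UMIs at E11.5 (0.317 CPM), 138 at E12.5 and 210 at E13.5 (4.63 CPM), which is a 14.6-fold ratio with a wide interval of 7.77 to 30.8.

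Among the antagonists, *Grem1*, which in the limb bud ties the posterior signalling centre to the apical ridge, was at 13.4, 31.3 and 38.3 CPM over the v2 stages (2.86-fold, 2.57 to 3.18) and at 25.5, 19.1 and 25.3 CPM in the v3 libraries in that order. *Nog*, the joint and cartilage antagonist, showed no ordered course, with 17.9, 14.2, 16.7, 24.7 and 15.5 CPM from E11.5 to E16.5 proximal, and 14.5 CPM in the distal segment. The interval of its E13.5 over E11.5 ratio was 0.833 to 1.04. *Chrdl1*, a chordin-like antagonist, was highest at E11.5 (19.7 CPM), lower at E12.5 and E13.5 (13.95 and 13.5 CPM) and lowest at E14.5 (4.25 CPM), with 11.2 and 6.42 CPM in the proximal and distal segments. *Bambi* lay within 47.6 to 64.1 CPM from E11.5 to E16.5 proximal and at 36.7 CPM in the distal segment, and its E13.5 over E11.5 ratio was 1.02 (0.957 to 1.08).

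Across the change of kit, *Bmp5*, *Gdf5* and *Chrdl1* were 3.02-fold (2.81 to 3.24), 3.45-fold (3.18 to 3.74) and 3.17-fold (2.82 to 3.56) lower at E14.5 than at E13.5, the 3 of 9 members counted that were past 2-fold downward, beside 6.56% of all genes. None was past it upward, beside 5.04% of all genes. This is a step in which stage and kit cannot be told apart. From E13.5 to E14.5 the joint markers summed to 515 and 298 CPM, the perichondrial or osteogenic markers to 197 and 86.4 CPM and the chondrocyte markers to 1403 and 1081 CPM. The early mesenchymal progenitor markers summed to 1260 and 609 CPM, the dermal fibroblast markers to 520 and 1072 CPM and the fibroblast markers to 26.9 and 125 CPM. Their part in these ratios was not tested. From E14.5 to E16.5 proximal, both v3, *Chrdl1* was 2.63-fold higher (2.39 to 2.89) and *Bmp7* 2.07-fold lower (1.98 to 2.17), beside 5.83% of all genes past 2-fold upward and 6.82% downward. The E14.5 library came from forelimbs with no segment named and the proximal library from the elbow region, so stage and limb region cannot be told apart in this step, and the distal levels of *Chrdl1* and *Bmp7* were 6.42 and 15.6 CPM. Cell type markers moved in the same step, with none of these 3 lists holding a gene at 0. From E14.5 to E16.5 proximal the 8 fibroblast markers summed to 125 and 1199 CPM, the 10 chondrocyte markers to 1081 and 5110 CPM and the 8 distal limb bud mesenchyme markers to 293 and 108 CPM. Of the proximal *Chrdl1* UMIs, unnamed cells held 38.7% with 26.6% of all UMIs, fibroblast-like cells 28.5% with 17.3% and mitotic-like cells 16.3% with 13.1%. The part of these cells in the ratios was not tested. The median log2 ratio was -0.38 over the 9 members counted and -0.18 over all genes. With scaling by trimmed means (TMM) in place of the library total, *Bmp7* was no longer past 2-fold. Leaving out chondrocyte-like cells, 1 member was past 2-fold upward and 3 downward, beside 5.67% and 7.44% of all genes. That took 1069 cells from the proximal library but 1 from the E14.5 library, although the chondrocyte markers summed to 1081 CPM there, and nothing is read from it.

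**Figure D1:**
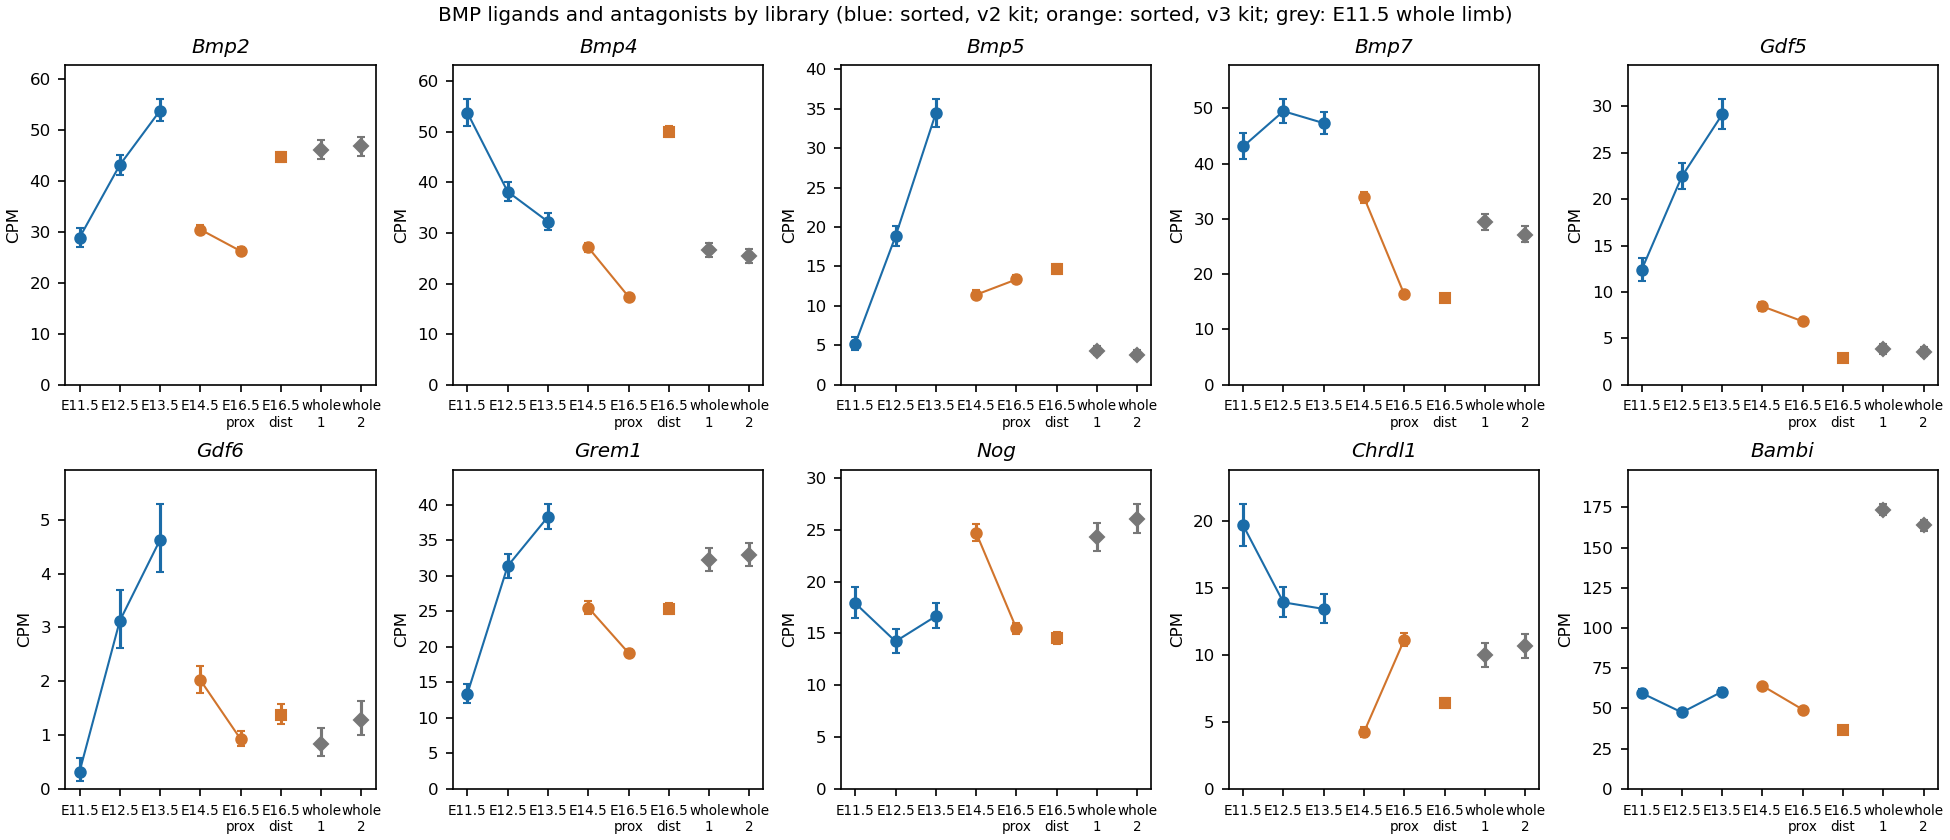
Level of each of the 10 genes in CPM (y axis, linear from 0) in each library (x axis), with exact Poisson 95% intervals as bars. Lines join sorted stages made with the same kit; *Bmp5*, *Gdf5* and *Grem1* are higher and *Bmp4* is lower at E13.5 than at E11.5, and *Bambi* is highest in both whole limb libraries (174 and 164 CPM).

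The rest of the pathway was read from a list of 48 genes, of which 37 reached 5 CPM at E11.5 or E13.5. From E11.5 to E13.5, 6 of them were past 2-fold upward and 12 downward, beside 6.03% and 4.17% of all genes. All 7 of the target genes were downward. *Id1*, an inhibitor of basic helix-loop-helix factors and a direct Smad target, was at 1209 CPM at E11.5 and 140 CPM at E13.5, *Id3* at 2218 and 495 CPM, and *Msx1*, a homeobox gene of the limb bud, at 37.7 and 4.69 CPM. The inhibitory Smads *Smad6* (33.4 and 15.4 CPM) and *Smad7* (225 and 57.4 CPM) were downward as well. Upward were the ligands *Bmp3* (2.60 and 12.4 CPM) and *Gdf10* (6.19 and 45.6 CPM) and the modulators *Bmper*, *Sostdc1*, *Smoc2* and *Fstl1*. Thus 3 members were upward in the libraries in which the listed targets were downward, a description of single libraries in which the part of dissociation was not tested.

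The only comparison with replicates set the E11.5 sorted library against whole 1 and whole 2, leaving out the myogenic-like and the endothelial-like cluster (3156, 5087 and 5331 cells kept; 9, 377 and 351 left out). No cluster of these libraries was named after epithelium, blood or glia, so none was removed. It asks how *Hic1*-lineage cells differ in these transcripts from limb mesenchyme at large. edgeR's quasi-likelihood test with Benjamini-Hochberg adjustment over 15065 genes had 1 residual degree of freedom, and the lone sorted library was assumed to vary like the whole limb pair. The labels do not say whether whole 1 and whole 2 came from separate litters, so the p-values measure only the spread between these samples, which may be technical. Of the members, 4 were higher and 5 lower in the sorted library, while 26.7% of all genes were called higher and 26.5% lower. The shares of members called are therefore set against a background in which more genes were called than not. Fitted log2 differences lie 0.18 below those of plain CPM because of the TMM scaling, and their median was 0.01 over all genes and -0.13 over the members.

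*Gdf5* stood at 12.5 CPM in the sorted library and at 4.11 and 3.82 CPM in whole 1 and whole 2. It was higher by 1.47 on the log2 scale (SE 0.16, adjusted p = 1.2e-17, edgeR). *Bmp4* was also higher, at 53.9 CPM against 28.2 and 26.1 CPM (log2 difference 0.81, SE 0.12, adjusted p = 9.9e-11). *Bmp7* was higher by less (43.3 against 31.2 and 28.7 CPM, log2 difference 0.35, SE 0.12, adjusted p = 0.0087), and that call was lost with DESeq2 (adjusted p = 0.072) and without the filter on low counts (adjusted p = 0.078). The sorted library exceeded both whole limb libraries for all 3 ligands.

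*Bmp2* was lower in the sorted library (29.0 CPM against 50.1 and 49.99 CPM), with a log2 difference of -0.97 (SE 0.12, adjusted p = 8.3e-15). *Gdf6* was rare everywhere, with 10 UMIs in the sorted library and 42 and 65 in whole 1 and whole 2. Its log2 difference was -2.01 (SE 0.45, adjusted p = 2.9e-05), which missed the threshold without the filter (adjusted p = 0.069), and without whole 2 its value was -1.52. For *Bmp5* the levels were 5.20, 4.37 and 3.95 CPM and the difference missed the threshold (log2 0.14, SE 0.19, adjusted p = 0.54).

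Of the antagonists, *Grem1* was lower (13.4 CPM against 33.9 and 34.1 CPM, log2 difference -1.53, SE 0.14, adjusted p = 4.0e-25) and *Chrdl1* higher (19.8 CPM against 10.8 and 11.5 CPM, log2 difference 0.65, SE 0.14, adjusted p = 6.3e-06). *Nog* was lower by a small amount, 17.5 CPM against 19.6 and 21.1 CPM (log2 difference -0.40, SE 0.13, adjusted p = 0.0065), and lost the call under DESeq2 (adjusted p = 0.073), without the filter (0.082 adjusted) and with cells thinned to 3000 UMIs (0.14 adjusted). *Bambi* had the lowest adjusted p of the 10. It was at 59.9 CPM in the sorted library and at 184 and 171 CPM in whole 1 and whole 2, a log2 difference of -1.75 (SE 0.10, adjusted p = 3.6e-60).

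Markers of distal limb bud mesenchyme moved with these differences. The 8 genes of that list, among them *Lhx2*, *Lmo2* and *Hoxd13*, summed to 144 CPM in the sorted library and to 849 and 818 CPM in whole 1 and whole 2, with none at 0 in any of the 3. Also lower were the mitotic (1654 against 2182 and 2120.5 CPM), dermal fibroblast (342 against 436 and 440 CPM) and perichondrial or osteogenic lists (124 against 142 and 151 CPM). The pericyte (110 against 132 and 148 CPM) and immune lists (3.99 against 6.12 and 6.02 CPM) were lower as well, and both held genes at 0 in each library. Among lists that were higher in the sorted library, 6 had no gene at 0. The 8 joint markers summed to 595 CPM against 226 and 220 CPM, the 8 tenocyte markers to 324 CPM against 107 and 108 CPM, the 6 fibrogenic progenitor markers to 585 CPM against 231 and 227 CPM, and the 10 chondrocyte markers to 690 CPM against 453 and 478 CPM. The gaps were smaller for the 8 early mesenchymal progenitor markers (3038 against 2667 and 2691 CPM) and the 6 perineurial markers (45.1 against 43.1 and 39.8 CPM). Although the myogenic-like cluster was left out, the myogenic list summed to 78.2 CPM against 34.4 and 41.4 CPM (*Myf5*, *Pax7* and *Myog* at 0 in the sorted library), the epithelial list to 24.8 CPM against 9.46 and 9.04 CPM and the glial list to 14.1 CPM against 7.17 and 6.05 CPM. The erythroid list set whole 1 apart, at 98.9 CPM beside 4.24 CPM in whole 2 and 0.160 CPM in the sorted library, and without whole 1 each of the 10 members kept its direction. The part of these lists in the differences was not tested. In an alternative chosen after seeing the data, in which distal limb bud mesenchyme-like cells (1602 and 1551 in the whole limb libraries, 7 in the sorted one) were left out as well, the count of members became 4 higher and 4 lower, beside 25.5% and 24.1% of all genes. *Bambi* then differed by -1.17 (adjusted p = 7.7e-30) and *Grem1* by -1.23 (adjusted p = 3.1e-19) on the log2 scale, *Bmp5* by 0.45 (adjusted p = 0.058), and *Nog* lost its call (-0.19, adjusted p = 0.25).

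**Figure D2:**
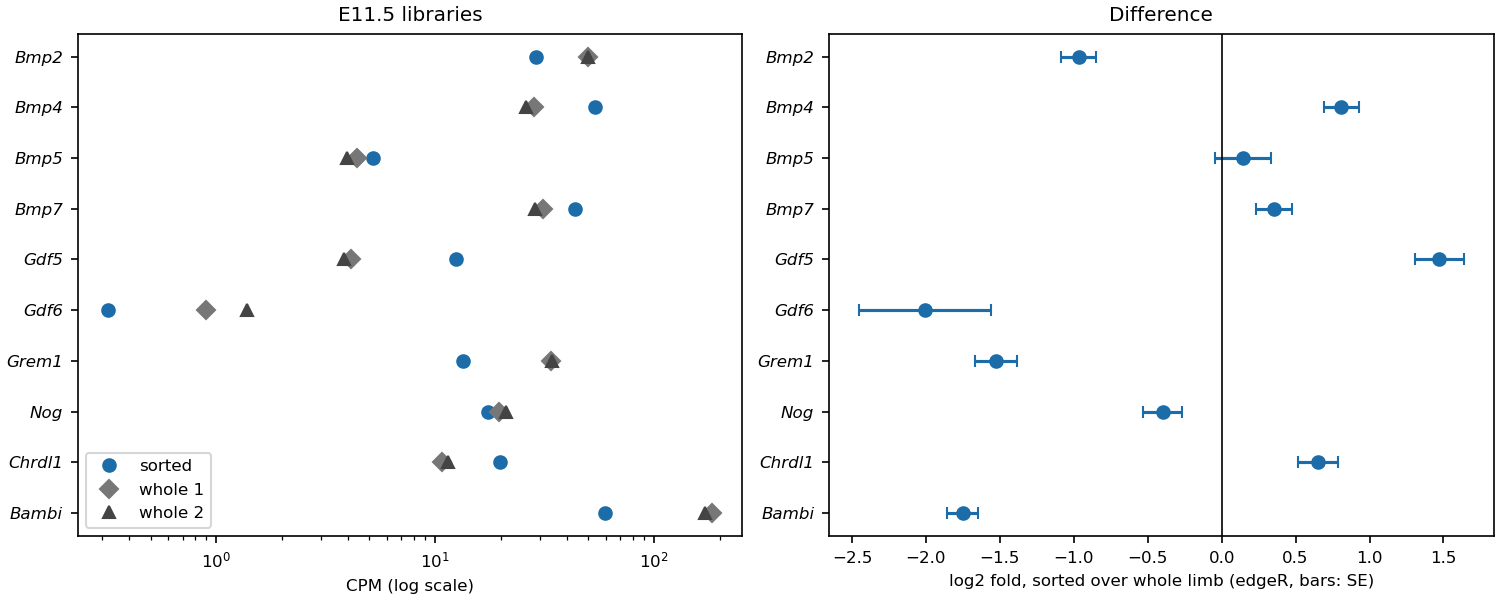
E11.5 levels of the 10 genes in the sorted library, whole 1 and whole 2 in CPM (left, log axis), and the log2 difference of sorted over whole limb with its SE (right, edgeR, n = 1 and 2 libraries). *Gdf5*, *Bmp4*, *Chrdl1* and *Bmp7* lie right of 0, *Bambi*, *Grem1*, *Gdf6*, *Bmp2* and *Nog* left of it, and the SE bar of *Bmp5* crosses 0.

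Beside them, 43 of the other 48 pathway genes were tested, and 17 were higher and 13 lower, beside 26.7% and 26.5% of all genes. Of the 13 secreted modulators 8 were higher and the other 5 missed the threshold. *Chrd*, the founding BMP antagonist, was at 10.6 CPM against 1.26 and 1.10 CPM (log2 difference 2.98), *Nbl1* at 110 against 32.0 and 30.7 CPM (1.63), and *Fst*, which binds activins and some BMPs, at 39.1 against 12.9 and 11.3 CPM (1.51). Both tested proteases that cleave chordin, *Bmp1* (1.31) and *Tll1* (3.17), were higher. Of the 7 targets 4 were lower, including *Msx1* (-3.803), *Msx2* (-3.82) and *Id1* (-1.14), and 2 were higher, *Id4* (0.79) and *Atoh8* (0.52).

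Cells were then grouped into clusters built without the 10 genes and the other 48 pathway genes, so that a level in a cluster was not used to form it. Clusters were named after marker lists and carry the ending "-like"; at E13.5 most cells (4793 of 6123) stayed unnamed. With 1 library per sorted group there is again no test, and whole 1 and whole 2 show the spread between libraries.

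In the E16.5 proximal segment 1069 cells were chondrocyte-like, 9.62% of all cells kept in that library, with 8.74% of their UMIs. In them 6 of the 9 members counted were at least 2-fold above the other described cells of that library (7.06% of all genes) and 2 at least 2-fold below (11.6% of all genes). Their median log2 ratio was 1.54, beside -0.01 over all genes. *Gdf5* was at 61.0 CPM (57.6 to 64.5) in chondrocyte-like cells and at 0.594 CPM in the rest, a 102.6-fold ratio (84.1 to 126). *Nog* was at 107 and 4.92 CPM (21.8-fold, 20.1 to 23.6). *Bmp5* (55.4 and 8.52 CPM, 6.5-fold), *Bmp2* (68.9 and 21.4 CPM, 3.23-fold), *Grem1* (46.4 and 16 CPM, 2.90-fold) and *Bambi* (108 and 42.6 CPM, 2.53-fold) were higher too. *Bmp4* (8.13 and 18.5 CPM) and *Chrdl1* (4.43 and 11.9 CPM) were 2.27-fold and 2.69-fold lower, and for *Bmp7* the interval of the ratio held 1 (17.1 and 16.2 CPM, 0.942 to 1.18). Each of these 6 was also past 2-fold upward under 4 other ways of calling the cells (lowest log2 ratio 1.30, for *Bambi*).

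Of all *Gdf5* UMIs of the proximal library, 90.9% (89.2 to 92.3) were in chondrocyte-like cells, as were 67.9% (66.3 to 69.5) of those of *Nog* and 42.3% of those of *Bmp5*. With every cell thinned to 3000 UMIs, 17.2% of chondrocyte-like cells held a *Nog* UMI and 11.4% a *Gdf5* UMI (median depth before thinning 17349 UMIs). In epithelial-like cells of the same library, the class used here as background, 1.38% held a *Nog* UMI and 0.318% a *Gdf5* UMI (median depth 37428 UMIs), and among 370 pericyte-like cells no *Gdf5* UMI was seen (upper 95% limit 0.433 CPM). For *Grem1* the shares were 8.79% in chondrocyte-like and 0.212% in epithelial-like cells. All 3 shares in chondrocyte-like cells thus lay above that background.

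Other pathway genes differed in the same cells. Of 37 counted, 8 were at least 2-fold higher and 6 lower in chondrocyte-like cells, beside 7.06% and 11.6% of all genes. Higher were the transducer *Smad9* (8.82 and 0.701 CPM), the receptor *Bmpr1b* (16.4 and 7.32 CPM) and the targets *Id1* (219 and 95.8 CPM), *Id4*, *Msx1* and *Atoh8*. The secreted modulator *Bmper* (27.3 and 10.1 CPM) and 1 gene among the inhibitory Smads and ubiquitin ligases were higher too. *Fst* (20.6 and 166 CPM) and *Nbl1* (41.4 and 158 CPM) were among the lower ones. Within this class the antagonists thus went both ways, with *Nog*, *Grem1* and *Bmper* high and *Fst*, *Nbl1* and the member *Chrdl1* (4.43 and 11.9 CPM) low.

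**Figure D3:**
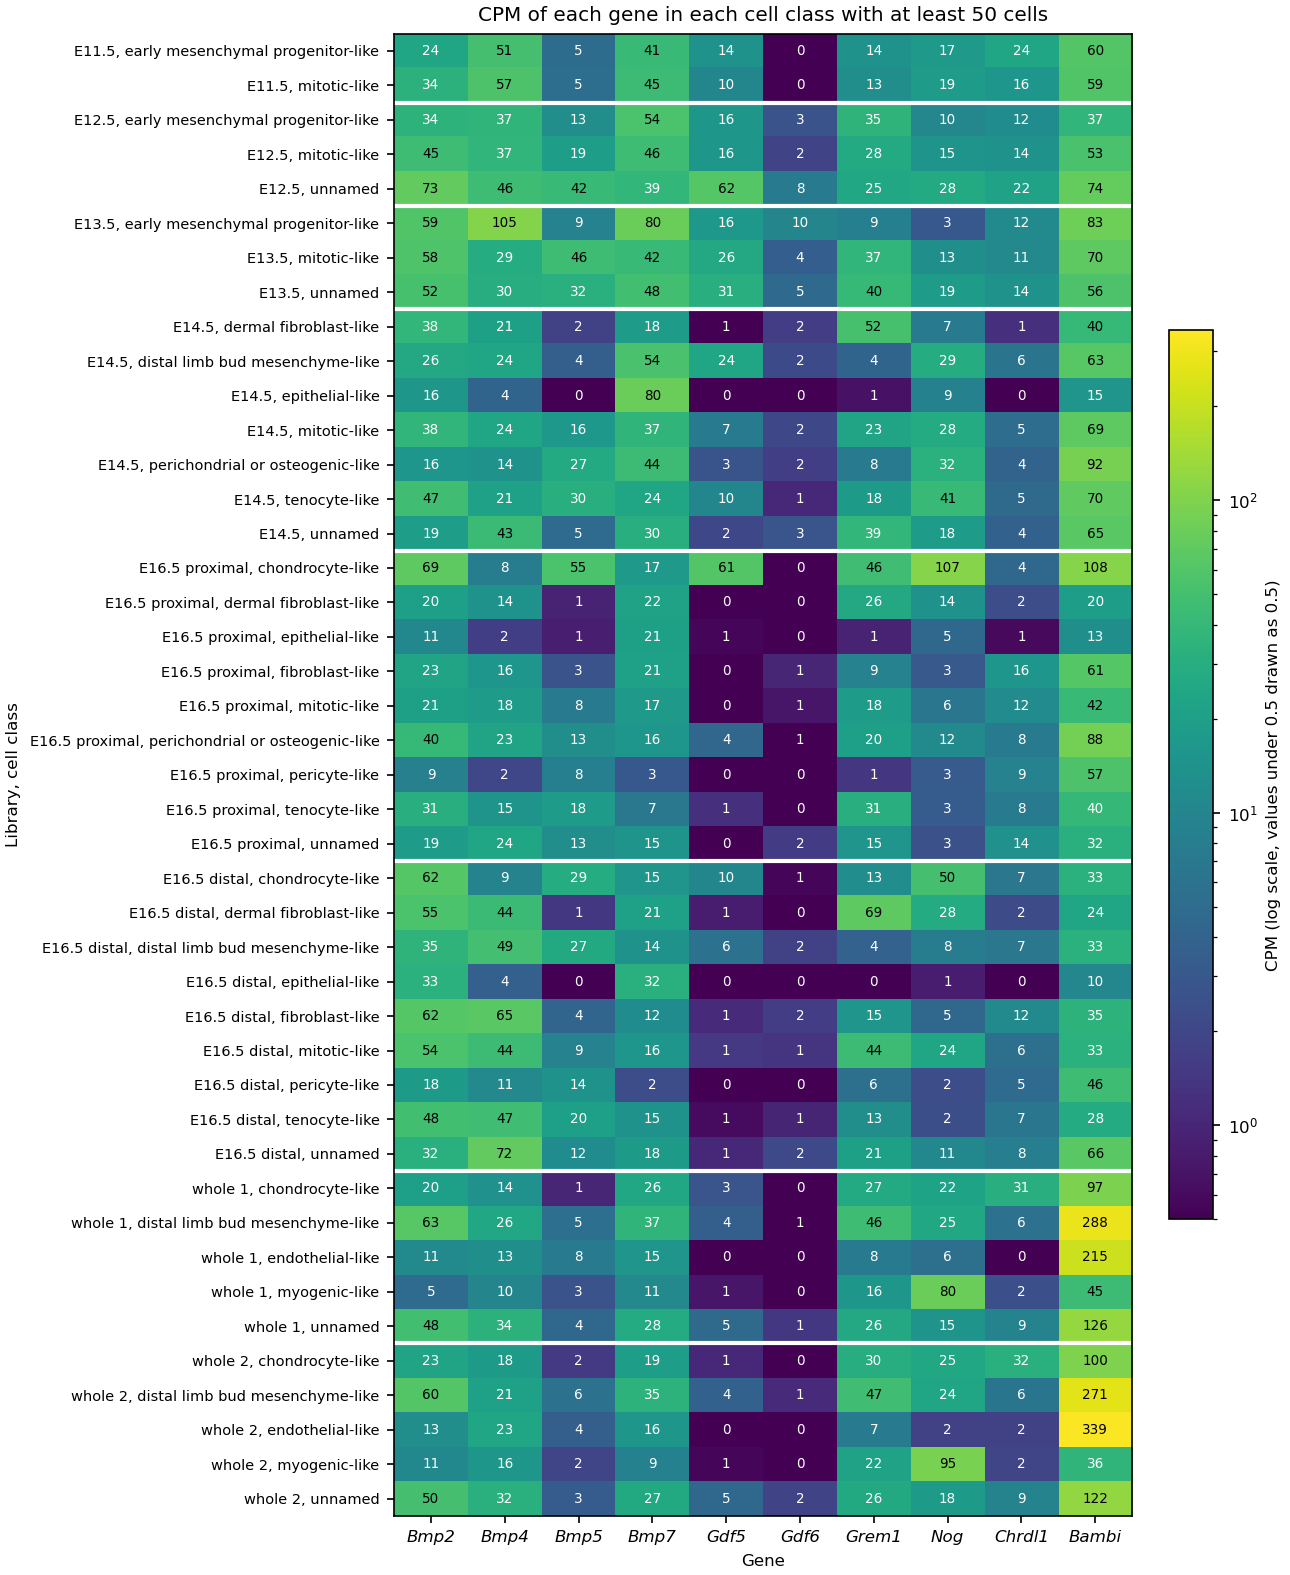
Level in CPM (colour, log scale; values printed) of each gene (x axis) in each cell class of each library with at least 50 cells (y axis). *Nog* stands out in the E16.5 proximal chondrocyte-like cells (107 CPM), where *Gdf5* is at 61 CPM, about its level in unnamed cells at E12.5. *Grem1* stands out in dermal fibroblast-like cells of the E16.5 distal library (69 CPM). *Bambi* does so in endothelial-like (215 and 339 CPM) and distal limb bud mesenchyme-like cells (288 and 271 CPM) of the whole limb libraries.

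Few chondrocyte-like cells held UMIs of both *Gdf5* and *Nog*. Of the 1069 cells, thinned to 3000 UMIs, 122 held a *Gdf5* UMI, 184 a *Nog* UMI and 9 both. A *Gdf5* UMI was found in 4.89% (2.26 to 9.08) of cells with a *Nog* UMI and in 12.8% (10.6 to 15.1) of cells without one. *Bmp5* behaved likewise, with 3.8% (1.54 to 7.68) of *Nog*+ and 18.5% (16 to 21.3) of *Nog*- cells. Conversely, *Bmp5* was detected in 23.8% of cells with a *Gdf5* UMI and in 15.0% of cells without. These are shares within 1 library, in sparse counts, and are given as a description.

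The 113 cells with *Gdf5* only and the 175 with *Nog* only were set side by side for genes of the marker lists. *Matn1*, a matrilin of mature cartilage, was detected in 63.7% (54.1 to 72.6) of *Gdf5* cells and in 97.7% (94.3 to 99.4) of *Nog* cells, and *Matn3* in 44.2% and 69.1%. In the 772 cells with neither UMI, *Matn1* was in 68.5% (65.1 to 71.8) and *Matn3* in 46.9%. The *Gdf5* cells thus lay near the cells with neither, and the *Nog* cells above both. The 8 genes of the perichondrial or osteogenic list did not move together. *Dkk3* (19.5%, 12.6 to 28.0, and 1.14%, 0.139 to 4.07) and *Runx2* (9.73% and 2.29%) had higher shares in *Gdf5* cells and *Sox5* (34.5% and 51.4%) and *Sox6* (15.0% and 33.7%) in *Nog* cells, with overlapping intervals for *Runx2* and *Sox5*, and the other 4 were in at most 1 cell of either set. All 8 mitotic markers had higher shares in *Nog* cells, among them *Birc5* (3.54% and 19.4%), *Top2a* (5.31% and 18.9%) and *Mki67* (1.77% and 12.6%). The intervals overlapped for *Ccnb1*, *Cenpf* and *Plk1*, the last with 3.54% and 4%. Cells with neither UMI had shares between those of the *Gdf5* and *Nog* cells for *Birc5* (10.8%), *Top2a* (11.4%) and *Mki67* (6.48%), and also for *Dkk3* (10.9%). *Col2a1* was in every cell of both sets, and for the 8 genes of the joint list the sets were not told apart. *Trps1* was the most frequent (36.3% and 32.6%), *Wnt4* was in 9.73% and 14.9% and *Prg4* in 4.42% and 1.14%, the intervals overlapped for each of the 7 detected, and *Wnt9a* was in none of either set (upper limits 3.21% and 2.09%). Of the clusters that made up the class, the one led by *3110079O15Rik* and *Matn3* (83 cells), in which the mitotic markers were raised as well, had *Nog* at 204 CPM (186 to 223) and *Gdf5* at 26.1 CPM, and the one led by *Matn1* and *Col2a1* (986 cells) had 95.1 and 65.4 CPM.

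**Figure D4:**
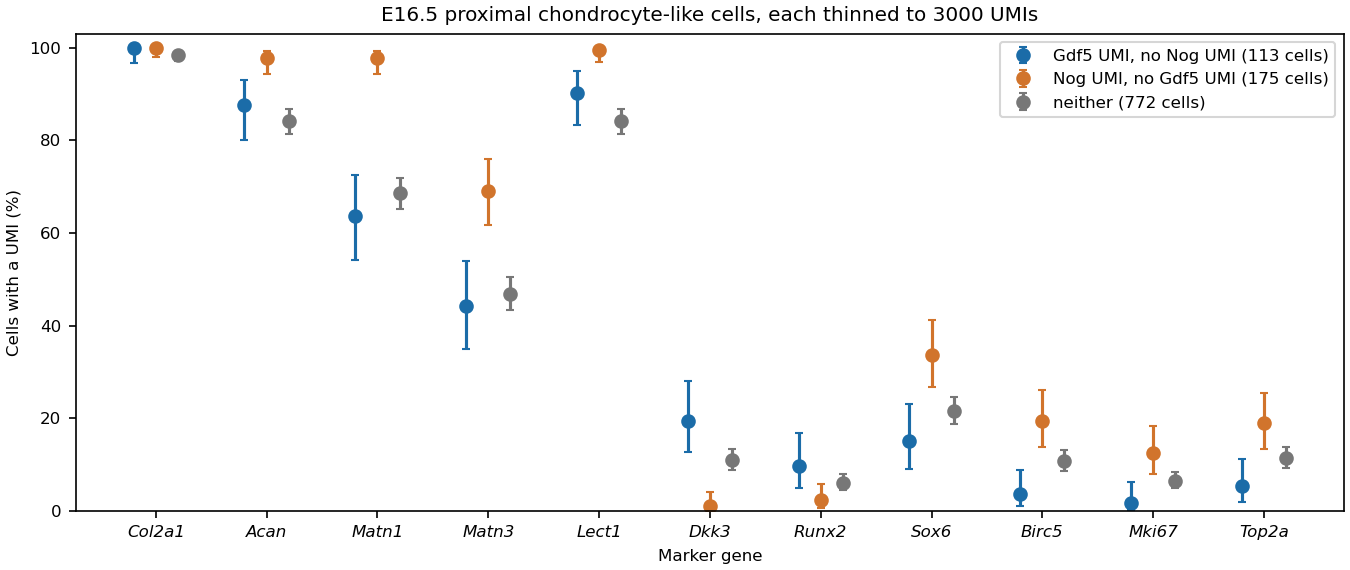
Share of E16.5 proximal chondrocyte-like cells with a UMI of each marker (y axis, percent, exact binomial 95% intervals), for cells with *Gdf5* only, *Nog* only or neither, each thinned to 3000 UMIs. *Matn1* is in 63.7% of *Gdf5* cells, 97.7% of *Nog* cells and 68.5% of cells with neither, *Dkk3* in 19.5%, 1.14% and 10.9%.

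Before E16.5 the same genes were high in cell groups without a name from the lists. A cluster led by *Wwp2* and *Sox6* held 563 cells at E12.5 and 1597 at E13.5. In this cluster 4 of the 10 chondrocyte markers were raised, but leading genes belonged to another list. *Nog* was at 38.5 and 52.2 CPM in it, *Gdf5* at 50.02 and 60.4 CPM, *Bmp5* at 49.3 and 66.1 CPM and *Bmp2* at 94.7 and 81.3 CPM, while *Bmp7* was low (15.9 and 13.9 CPM). A cluster led by *Stmn2* and *Fam159a* (132 and 1777 cells) showed the reverse pairing. In it *Bmp7* was at 110 and 71.2 CPM and *Gdf5* at 150 and 31.8 CPM, *Gdf6* reached its highest level of all clusters at E12.5 (33.2 CPM), and *Nog* stood at 3.59 and 4.37 CPM. *Gdf5* was thus found beside *Nog* in one cluster and without it in the other. Early mesenchymal progenitor-like cells at E13.5 (224 cells) had *Bmp4* at 105 CPM, against 28.8 CPM in mitotic-like and 29.8 CPM in unnamed cells. In an unnamed cluster of E13.5 led by *Gatm* and *Prox1* (1419 cells) *Grem1* was at 76.7 CPM with *Gdf5* at 2.92 and *Nog* at 3.19 CPM. These clusters are named here after their values were seen.

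At E14.5 the distal limb bud mesenchyme-like class (2250 cells) held 58.5% (55.6 to 61.4) of the *Gdf5* UMIs with 20.5% of all UMIs. Within it a cluster led by *Msx1* and *Hoxd13* (888 cells) had *Gdf5* at 52.8 CPM, *Nog* at 61.0 CPM and *Bmp7* at 75.2 CPM. Dermal fibroblast-like cells (1182) held 32.8% of the *Grem1* UMIs with 16.1% of all UMIs, at 51.6 CPM, and unnamed cells held 37.8% with 24.8%. The *Gdf5* level of dermal fibroblast-like cells was 0.511 CPM. *Bmp5* was highest in a cluster with all 8 tenocyte markers raised (30.3 CPM), whose leading genes nevertheless included *Mia*, *Matn4*, *Otor* and *Cytl1*, known from cartilage, beside the tendon gene *Tnmd*, and in perichondrial or osteogenic-like cells (27.5 CPM), 2 neighbours whose intervals overlapped (28.0 to 32.8 and 24.2 to 31.1 CPM).

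In the whole limb libraries *Bambi* was at 288 and 271 CPM in distal limb bud mesenchyme-like cells, at 96.9 and 99.8 CPM in chondrocyte-like cells and at 45.1 and 36.2 CPM in myogenic-like cells, so that the order of these 3 classes was the same in both. It was also high in 55 endothelial-like cells of each library (215 and 339 CPM), a cluster led by the platelet genes *Pf4*, *Ppbp* and *Clec1b*. *Nog* was highest in myogenic-like cells (80.4 and 94.6 CPM), which held 26.3% and 25.4% of the *Nog* UMIs with 7.95% and 7.01% of all UMIs. *Chrdl1* was highest in chondrocyte-like cells (30.5 and 31.9 CPM, 35.5% and 38.0% of its UMIs). In distal limb bud mesenchyme-like cells *Grem1* was at 45.9 and 47.0 CPM and *Bmp2* at 63.1 and 60.4 CPM, above their chondrocyte-like levels (27.5 and 29.8 CPM for *Grem1*, 20.1 and 22.7 CPM for *Bmp2*).

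The E16.5 segments were compared as 1 distal against 1 proximal library, both v3, without a test. By the submitters' notes the counting software was Cell Ranger 6.0.1 for the distal and 3.0.2 for the proximal library. Segment therefore cannot be told apart from processing version. *Bmp4* was at 49.96 CPM distally and 17.4 CPM proximally, a 2.87-fold ratio (2.76 to 2.99), and was the member past 2-fold upward, beside 4.48% of all genes. *Gdf5* was at 2.84 and 6.83 CPM, 2.41-fold lower distally (2.16 to 2.68), and was the member past 2-fold downward, beside 2.56% of all genes. *Bmp2* (44.7 and 26.3 CPM) and *Grem1* (25.3 and 19.1 CPM) had ratios of 1.70 and 1.32, *Chrdl1* (6.42 and 11.2 CPM) and *Bambi* (36.7 and 49.3 CPM) were 1.74-fold and 1.34-fold lower, and for *Bmp5*, *Bmp7* and *Nog* the ratios lay between 0.938 and 1.10. The median log2 ratio was -0.07 over the 9 members counted and 0.10 over all genes.

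The make-up of the segments moved with these values. Chondrocyte-like cells had 8.74% of the proximal and 3.41% of the distal UMIs. Without them *Gdf5* was at 0.594 CPM proximally and 2.58 CPM distally, so its direction turned (log2 ratio 2.12). Both of these levels were under the 5 CPM of the 2-fold rule, so that ratio was not counted. *Nog* stood at 4.92 and 13.2 CPM without chondrocyte-like cells. *Bmp4*, *Bmp2* and *Nog* were then past 2-fold upward and no member counted by the rule was past it downward, beside 4.68% and 2.25% of all genes without those cells. Distally 64.5% (59.9 to 68.9) of the *Gdf5* UMIs lay in distal limb bud mesenchyme-like cells, a class with 31.1% of the UMIs.

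Within a class present in both segments, *Bmp4* was higher distally in fibroblast-like (65.1 and 15.7 CPM, 4.16-fold, 3.77 to 4.59), dermal fibroblast-like (43.8 and 13.99 CPM, 3.13-fold), tenocyte-like (46.9 and 15.0 CPM, 3.13-fold) and mitotic-like cells (44.3 and 18.1 CPM, 2.45-fold). Of the fibroblast-like cells, 1480 of 1994 proximal ones were in a cluster led by *Sfrp4* and *Cbln2*, and 692 of 811 distal ones in a cluster led by *Cldn3* and *Pi16*. In the former, which had 99 distal cells, *Bmp4* was at 48.0 CPM distally and 19.0 CPM proximally. Pericyte-like cells gave 5.45-fold from 60 and 17 UMIs. In chondrocyte-like cells the interval of the ratio held 1 (9.40 and 8.13 CPM, 0.827 to 1.59). *Bmp2* followed a like course, 2.75-fold in dermal fibroblast-like and 2.70-fold in fibroblast-like cells but 0.893 (0.790 to 1.01) in chondrocyte-like cells.

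*Grem1* differed in both directions. In dermal fibroblast-like cells it was at 68.6 CPM distally and 25.8 CPM proximally (2.66-fold, 2.41 to 2.95), while in chondrocyte-like cells it was at 12.5 and 46.4 CPM (3.70-fold lower, 2.89 to 4.81) and in tenocyte-like cells at 12.6 and 31.5 CPM (2.50-fold lower, 2.00 to 3.14). Tenocyte-like cells were 1 cluster in both segments, but different clusters held most of the chondrocyte-like and dermal fibroblast-like cells. Of the chondrocyte-like cells, 986 of 1069 proximal ones were in the cluster led by *Matn1* and *Col2a1*, and 178 of 273 distal ones in a cluster led by *Cytl1* and *Sema3e*. In the former cluster, which had 72 distal cells, *Grem1* was at 11.9 and 47.3 CPM. Distal dermal fibroblast-like cells were mostly in a cluster led by *Sp9* and *Kcna4* (1559 of 1789) and proximal ones in a cluster led by *Rspo1* (982 of 1074), in which *Grem1* was at 72.1 CPM distally (230 cells) and 27.2 CPM proximally. In these 2 clusters the direction was that of the class.

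*Nog* was 2.12-fold lower distally in chondrocyte-like cells (50.5 and 107 CPM) and 3.67-fold higher in mitotic-like cells (23.8 and 6.48 CPM). That class joined 2 clusters in unequal shares. A cluster led by *Nusap1* and *Aurkb* (348 distal and 844 proximal cells) had *Nog* at 9.65 and 2.72 CPM, and a cluster led by *Hist1h2ab*, in which dermal fibroblast markers were raised as well (285 and 294 cells), had it at 45.3 and 20.2 CPM. *Gdf5* (10.1 and 61.0 CPM, 6.02-fold) and *Bambi* (33.2 and 108 CPM, 3.25-fold) were lower in distal chondrocyte-like cells. A small unnamed cluster, led by *Gal*, *Sox2* and *Foxd1* and singled out after its values were seen, had the highest *Bmp4* and *Bmp7* levels of the clusters in each E16.5 segment. In it 9 of the 10 dermal fibroblast markers were raised, but a leading gene belonged to another list. Its 58 distal cells had *Bmp4* at 317 CPM (280 to 357) and *Bmp7* at 276 CPM, its 83 proximal cells 81.8 and 142 CPM, and no *Bmp5*, *Gdf5*, *Gdf6* or *Chrdl1* UMI was seen in either set.

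**Figure D5:**
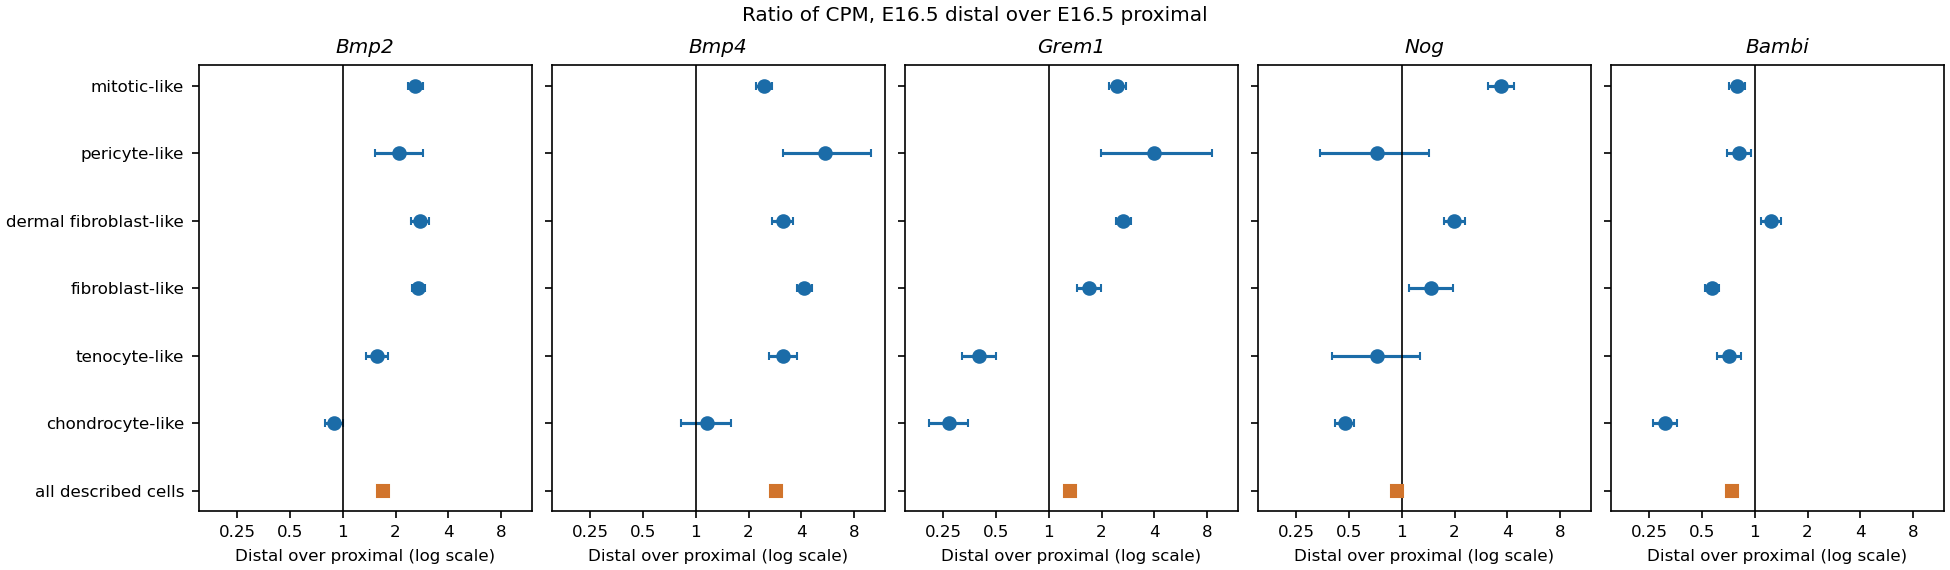
Ratio of CPM, E16.5 distal over proximal (x axis, log scale, 95% intervals), of 5 genes in 6 classes with cells in both segments, epithelial-like cells not among them (blue) and over all described cells (orange). *Bmp4* lies right of 1 in the mitotic-, pericyte-, dermal fibroblast-, fibroblast- and tenocyte-like cells plotted, its interval holds 1 in chondrocyte-like cells, and *Grem1* lies right of 1 in dermal fibroblast-like (2.66) and left of it in chondrocyte-like (0.270) and tenocyte-like cells (0.400).

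In the distal segment 38 of the other pathway genes were counted, with 8 past 2-fold upward and 3 downward, beside 4.48% and 2.56% of all genes. *Msx1* (16.2 and 2.24 CPM), *Id1* (226 and 108 CPM), *Smad7* (100 and 40.6 CPM) and the receptor *Bmpr2* (112 and 52.6 CPM) were higher distally, beside *Tll1*, a chordin-cleaving protease (9.71 and 1.03 CPM). *Fst* (71.3 and 151 CPM), *Smoc2* and *Rgmb* were lower. A cluster led by *Grp* and *Msx1* held 1407 distal and 23 proximal cells, and the part of cell make-up in these ratios was not tested.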

How the data were processed

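Single-cell RNA-seq libraries (10x Genomics, v2 kit for samples up to E13.5 and v3 later) had been aligned by the authors to a modified mm10 genome. The deposited filtered matrices give, as raw counts, the UMIs of 28001 features in each barcode, 3 of them added sequences. The submitters' processing notes and file headers name Cell Ranger 3.0.2 for 5 sorted libraries and 6.0.1 for the E16.5 distal library; for the whole limbs they name no version, and the study's reporting summary gives a further version for its single-cell data at large. Reads of overlapping genes on one strand could be split or lost by that counting.

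Cells with at least 3000 UMIs and at most 10% mitochondrial UMIs were kept (Python 3.11.15, numpy 2.4.6, scipy 1.17.1, pandas 2.3.3). Total UMIs per library lay between 32957305 and 236408650. The 10 genes and 48 other pathway genes were left out of clustering, which used 2000 variable genes, 50 principal components, 25 neighbours and Leiden resolution 1 (scanpy 1.11.5, leidenalg 0.10.2). The doublet caller's automatic threshold marked between 0 and 4 cells per library and so did not work. Doublets were therefore kept, and an alternative left out the cells with the top scores, a share that grows with the number of barcodes. Levels are CPM with exact Poisson intervals. Shares used cells thinned to 3000 UMIs with Clopper-Pearson intervals. Both intervals are at 95% and cover counting error only.

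Libraries were grouped by their labels. Ratios between single libraries or classes were counted past 2-fold where either side had 5 CPM or more. Only E11.5 sorted against whole limb was tested, on summed counts (edgeR 4.0.16 quasi-likelihood, TMM, R 4.3.3), with DESeq2 1.42.0 and limma 3.58.1 as alternatives. Other alternatives changed the filter, scaling, mitochondrial limit, thinning, clustering and cells. Scripts were tested on simulated data. The genes named are the 10 members, and of the other pathway genes those past a threshold. The members, gene lists and marker lists were chosen with earlier results of these data known. Promoter sequences are from RefSeq (GRCm38.p6).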

Additional observations from a re-analysis of the deposited data

Results flagged for a closer look

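*Grem1* differed between the E16.5 segments in opposite directions by cell class. The ratio of distal over proximal CPM was 2.66 in dermal fibroblast-like, 2.45 in mitotic-like and 3.99 in pericyte-like cells but 0.270 in chondrocyte-like and 0.400 in tenocyte-like cells. The pericyte-like ratio came from only 31 distal and 12 proximal UMIs, with an interval of 1.99 to 8.53. Each segment was 1 library, so the difference between classes was not tested.

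Epithelial-like cells, left out of the library sums, carried *Bmp7* above the level of the described cells in the 3 v3 libraries. At E14.5 it was at 80.0 CPM (66.1 to 96.0) in 65 cells, beside 33.9 CPM in the described cells, and in the E16.5 distal segment at 31.9 CPM (25.2 to 39.9) in 67 cells, beside 15.6 CPM. In the E16.5 proximal segment, with 942 such cells, the levels were closer, 20.6 CPM (19.2 to 22.2) beside 16.3 CPM.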

How the results depend on the processing

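Of the alternative values for single genes, 240 kept direction and call or moved by less than their interval, 107 moved by more, 7 lost their call and 1 reversed. The reversed value was *Gdf5* distal over proximal at E16.5, with a log2 ratio of 2.12 without chondrocyte-like cells. Without those cells its level was under 5 CPM in both segments. For E11.5 sorted against whole limb, 3 members were lower without the filter on low counts. Over all genes 2138 were then higher and 2327 lower, and DESeq2 called 2024 higher, beside 4026 higher and 3994 lower with edgeR. From E14.5 to E16.5 proximal, 3 members were at least 2-fold lower without chondrocyte-like cells, beside 7.44% of all genes. Nothing is read from that count, since those cells were removed almost only from the proximal library. With TMM scaling 0 members were at least 2-fold lower. Between the segments, leaving out chondrocyte-like cells gave 3 members higher and 0 lower, beside 4.68% and 2.25% of all genes. When chondrocyte-like cells were called by at least 3 markers per cell, 1 member was at least 2-fold lower in them. The counts with TMM scaling and with the marker call are given without a share over all genes, and nothing is read from them. Leaving out either whole limb library, which gives a value without a test, moved *Gdf6* to between -2.13 and -1.52 on the log2 scale. No paired analysis was possible because only the whole limb group has replicate numbers. Counts of 10 UMIs or fewer, as for *Gdf6* at E11.5, limit what the ratios can show, and single libraries carry no replicate error.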

Other observations

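As a description, the profile of each gene over 31 pairs of sorted library and class of at least 100 cells was set beside those of 5868 genes. The pairs came from v2 and v3 libraries alike, and the part of kit and stage in the likeness was not tested. Pearson's r, given without a p because the points share libraries and depth, was highest for *Bmp4* with *Hand2* (0.856), for *Gdf5* with *Ttc14* (0.890) and *Sox9* (0.872), for *Nog* with *Col9a1* (0.792) and *Fgfr2* (0.780), for *Bmp5* with *Bmper* (0.819), for *Grem1* with *Cpq* (0.717) and for *Bambi* with *Tspan6* (0.801). For *Bmp2* it was highest with *Boc* (0.765), for *Bmp7* with *Cd24a* (0.868), for *Gdf6* with *Islr2* (0.814) and for *Chrdl1* with *Arhgef2* (0.814).

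With all described cells thinned to 3000 UMIs, some pairs of the 10 genes were detected in the same cells more or less often than the product of their shares. At E13.5 a *Gdf5* UMI was in 23.3% (18.3 to 29.0) of cells with a *Chrdl1* UMI and in 5.90% (5.31 to 6.53) of cells without one. At the same stage a *Bmp7* UMI was in 3.78% (1.90 to 6.66) of *Nog*+ and 12.4% (11.5 to 13.3) of *Nog*- cells. A *Grem1* UMI was in 12% of *Nog*+ and 4.39% of *Nog*- cells of the E16.5 proximal library and in 17.5% and 5.44% of the distal one. These pairs were picked after their values were seen, and cells of 1 library are not replicates.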
